A study of Arabidopsis thaliana with 8 samples.

Results

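The transcripts described here were more abundant in Arabidopsis thaliana cells of the VND7XVE line than in cells of the SND1XVE line, and estradiol changed them little in either line. They were chosen by their measured values. A probe set, the group of short oligonucleotides that measures 1 transcript on the array, was a member when its mean log2(signal + 16) without estradiol was at least 1.2 higher in VND7XVE than in SND1XVE cells. In addition, its mean with estradiol differed from that without by no more than 0.5 in each line, and its signal was at least 200 on both VND7XVE arrays without estradiol. The rule also left out 3 named heat-responsive loci, AT1G52560, AT1G53540 and AT5G48570, and the genes encoded in the plastid. In all, 69 of 22746 probe sets were members. Of these, 24 list 1 gene each, 7 list several genes and 38 have no gene in the platform annotation used here. Any plastid-encoded genes among those 38 could not be recognised and left out.

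The study set out to find genes that the transcription factors SND1 and VND7 switch on directly. SND1 and VND7 are NAC-domain proteins, known to start secondary wall deposition, SND1 in fibres and VND7 in vessels of the xylem. Total RNA of protoplasts (plant cells freed of their walls) was hybridised to 1-colour expression arrays with 2 arrays in each of 4 groups. These groups were VND7XVE cells given cycloheximide plus estradiol, VND7XVE cells given cycloheximide alone, SND1XVE cells given cycloheximide plus estradiol, and SND1XVE cells given cycloheximide alone. Estradiol is the inducing agent, and "without estradiol" below means cycloheximide alone. All 8 arrays therefore come from cells in which cycloheximide, an inhibitor of protein synthesis on cytosolic ribosomes, was present, and no group is untreated. The labels give no organ, promoter, number of transformed clones or preparation day, so the transgenic line and the batch of protoplasts cannot be told apart. They also do not say whether the 2 arrays of a group came from separate cultures, so the errors and p-values below cover only how these samples vary, and part of that may be technical.

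Heat shock proteins are chaperones that bind unfolded proteins. Small heat shock proteins hold such proteins in a soluble state, the HSP70 machine refolds them with the help of DnaJ proteins and exchange factors, and Hop proteins link HSP70 to HSP90. In plants these genes are switched on together by heat shock factors when proteins unfold. Histones H2A, H2B, H3 and H4 form the nucleosome around which DNA is wound, and most of their genes are transcribed during DNA replication.

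The rule used the values of all 4 groups. A member's line difference with estradiol could not be below 0.2, and its estradiol effects could not differ between the lines by more than 1. The line differences and estradiol effects of the members are therefore given as descriptions without a test. Differences are on the log2(signal + 16) scale, which understates them at low signal, with the standard error (SE, shown after ±) of the linear model fitted to 2 arrays in each of 4 groups, across all 14768 probe sets that passed a filter on low signal. All 69 members passed that filter. A probe set was called when limma's Benjamini-Hochberg adjusted p over all tested probe sets was below 0.05.

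The 8 arrays had the same 2% trimmed mean, 500.05 to 500.06, and median signals between 98.95 and 109.9. Replicate arrays correlated at Pearson's r of 0.977 to 0.985 across probe sets. Spiked-in control transcripts also differed between the lines. The poly-A spikes, 13 probe sets, averaged 0.50 higher in VND7XVE than in SND1XVE cells with estradiol and 0.58 higher without it, and the 18 hybridization controls averaged 0.43 and 0.21 higher. The actin control's ratio of 3′ to 5′ signal was 4.64 and 3.98 in VND7XVE cells and 3.30 and 3.21 in SND1XVE cells with estradiol. Without estradiol it was 3.72 and 4.16 in VND7XVE cells and 2.80 and 2.87 in SND1XVE cells. All VND7XVE arrays thus had the higher actin ratio, while the ratios for GAPDH and ubiquitin overlapped between the lines. The part of these differences in the members' values was not tested. Of the leaf mesophyll markers on the list used, only RCA, the activase of Rubisco, was measured, with signals of 2537 to 2763 in VND7XVE cells and 2192 to 2499 in SND1XVE cells. Probe sets for the listed epidermis, phloem, xylem and root markers were not measured under a single gene name. The 2 measured genes listed as guard cell markers, FMA and EMB2786, had summed signals of 132.5 to 188.5 in VND7XVE cells and 181.6 to 193.9 in SND1XVE cells with estradiol. Without estradiol the sums were 171.6 to 205.6 in VND7XVE cells and 257.1 to 257.6 in SND1XVE cells. Neither gene was called between the lines in either setting. Whether EMB2786 marks guard cells was not tested, so these sums are no measure of guard cells. The summed signals of the 2 pollen markers were 3.8 to 62.6, the highest from 1 SND1XVE array without estradiol. In such bulk samples, fewer cells of a type and less RNA per cell cannot be told apart.

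Across the 69 members the line difference without estradiol ranged from 1.2 to 2.65, with a median of 1.43. It was 2 or more for 9 members, between 1.5 and 2 for 19 and below 1.5 for 41. With estradiol the median was 1.32 and the range 0.52 to 2.92. Over all tested probe sets the medians were -0.05 with estradiol and 0.00 without. The median signal of the members was 1123 and 1213 on the VND7XVE arrays and 433 and 442 on the SND1XVE arrays with estradiol. Without estradiol it was 1258 and 1268 in VND7XVE cells and 406 and 430.3 in SND1XVE cells. For every member, all 4 VND7XVE arrays lay above all 4 SND1XVE arrays, as they did for 12.6% of all tested probe sets. All 69 were called higher without estradiol, against 13.7% of all tested probe sets. With estradiol 67 of 69 were called higher, against 14.1%. The rule used these contrasts, so nothing is read from these shares.

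**Figure D1:**
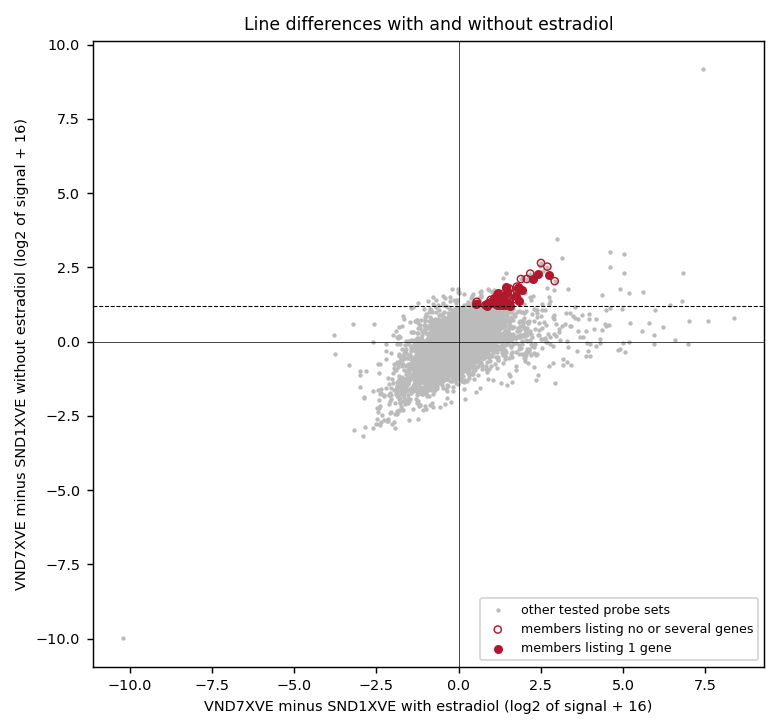
Line differences, VND7XVE minus SND1XVE, in log2(signal + 16), with estradiol on the horizontal axis and without estradiol on the vertical axis, for each tested probe set (grey) and each of the 69 members (red). Every member lies above the dashed line at 1.2, which the rule set, and at 0.52 to 2.92 with estradiol; the isolated grey points are 2 unlisted probe sets at 9.17 and -9.98 without estradiol.

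The plot of line differences shows the members as the upper edge of the main cloud of points, and not as a group apart from it. The rule's minimum cuts through this edge, since 23 probe sets that met its other conditions had line differences of 1.1 to 1.2 and another 23 had differences of 1.2 to 1.3. Replicate arrays of the members differed by a median of 0.116 with and 0.106 without estradiol in VND7XVE cells, and by 0.139 and 0.174 in SND1XVE cells. The most unequal pair of any member differed by 1.14.

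Chaperones and co-chaperones were the largest group among the 24 members with 1 listed gene, with 7 in the chaperone families or the heat shock list. Of all 8100 tested probe sets that list 1 gene, 31 belong to these families or the list, but the families were drawn up from the members, so the share is a description. AT1G71000 and HSA32 are in neither and are described with them. The families as drawn up are thus incomplete. The 31 may be too low, and nothing is read from setting 7 of 24 beside it. The values given for single arrays are signal intensities. AT1G71000 had the largest difference of the 24 without estradiol and encodes a protein with a DnaJ domain, the part that works with HSP70. Its signals were 1123 and 1510.5 in VND7XVE cells and 195 and 272 in SND1XVE cells with estradiol, and 1258 and 1351 in VND7XVE cells and 249 and 263 in SND1XVE cells without it. The lowest VND7XVE array stood at more than 4 times the highest SND1XVE array, and the line difference was 2.42 ± 0.16 with estradiol and 2.28 ± 0.16 without it. AT2G20560, another DnaJ protein, had 990.0 and 1008 in VND7XVE cells and 342 and 377 in SND1XVE cells with estradiol, and 1205 and 1195 in VND7XVE cells and 349 and 308 in SND1XVE cells without it. Its differences were 1.44 ± 0.12 with estradiol and 1.82 ± 0.12 without it. AT4G28480, also a DnaJ protein, was the dimmest of the 3 on the VND7XVE arrays, with signals of 477 and 541.5 in VND7XVE cells and 179.9 and 210.4 in SND1XVE cells with estradiol, and 468 and 443 in VND7XVE cells and 175 and 192 in SND1XVE cells without it. Its differences of 1.32 ± 0.15 with estradiol and 1.25 ± 0.15 without it were also the smallest of the 3 DnaJ members.

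Small heat shock proteins gave 3 members. AT1G54050 encodes a class III small heat shock protein, the nuclear class. Its signals were 725 and 768 in VND7XVE cells and 102.5 and 92.6 in SND1XVE cells with estradiol, and 646 and 718 in VND7XVE cells and 114.5 and 150.5 in SND1XVE cells without it. The line difference was 2.75 ± 0.16 with estradiol and 2.24 ± 0.16 without it. Its SND1XVE signals were lower with estradiol than without, and its VND7XVE signals were higher. AT2G29500 encodes a class I protein, the cytosolic class, and was among the brightest members. It had 6689 and 5976 in VND7XVE cells and 1829.6 and 1752 in SND1XVE cells with estradiol, and 5895 and 5924 in VND7XVE cells and 1536 and 1841 in SND1XVE cells without it. Its differences were nearly the same in both settings, 1.81 ± 0.11 with estradiol and 1.80 ± 0.11 without it. AT5G37670 encodes a small heat shock protein of the peroxisome. It had 591 and 721 in VND7XVE cells and 242 and 211 in SND1XVE cells with estradiol, and 855 and 866 in VND7XVE cells and 222.5 and 299 in SND1XVE cells without it. The VND7XVE signals with estradiol lay below those without it (-0.39, without a call), and the line differences were 1.46 ± 0.16 with estradiol and 1.68 ± 0.16 without it.

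Hop3, a co-chaperone that bridges HSP70 and HSP90, had 2338 and 2025 in VND7XVE cells and 433 and 453 in SND1XVE cells with estradiol, and 1702 and 1818 in VND7XVE cells and 406 and 383 in SND1XVE cells without it. The lines did not overlap in either setting, and the line difference was 2.26 ± 0.12 with estradiol and 2.11 ± 0.12 without it. Fes1A, a cytosolic factor that acts on HSP70 during heat, was the brightest member with 1 listed gene. Its signals were 7570.5 and 7517 in VND7XVE cells and 3370.1 and 3217 in SND1XVE cells with estradiol, and 7748 and 8474 in VND7XVE cells and 3419.7 and 3496 in SND1XVE cells without it. Its difference was among the smallest, 1.19 ± 0.09 with estradiol and 1.22 ± 0.09 without it, but its replicate arrays lay close together. HSA32, a protein needed in Arabidopsis to keep acquired heat tolerance over time, had 364 and 362 in VND7XVE cells and 152 and 112.5 in SND1XVE cells with estradiol, and 429 and 344 in VND7XVE cells and 143 and 109.9 in SND1XVE cells without it. Its signals did not overlap between the lines, and the differences were 1.37 ± 0.19 with estradiol and 1.5 ± 0.19 without it.

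**Figure D2:**
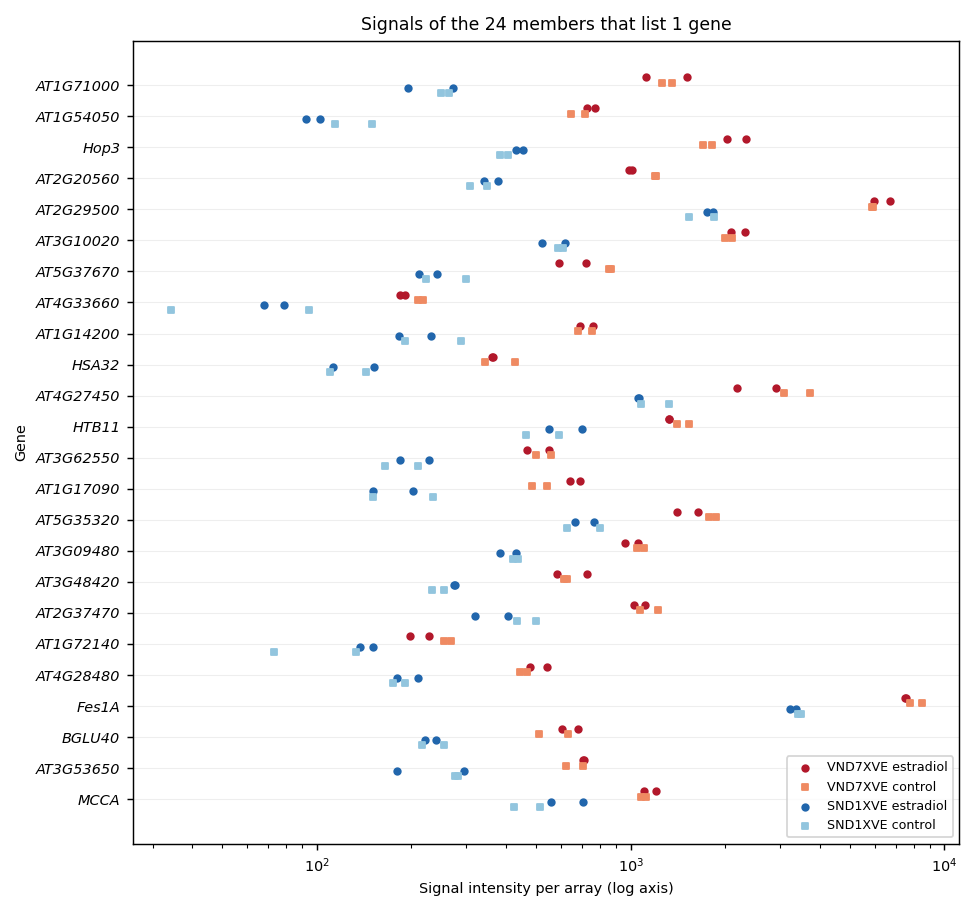
Signal intensity on each of the 8 arrays, on a log axis, for the 24 members that list 1 gene, ordered by their line difference without estradiol. Each point is 1 array; in every row the VND7XVE arrays (red and orange) lie to the right of the SND1XVE arrays (dark and light blue), most narrowly for AT1G72140 with estradiol.

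Histone H2B genes were the second group, with 4 members. HTB11 had 1324 and 1329 in VND7XVE cells and 549.9 and 699.5 in SND1XVE cells with estradiol, and 1409 and 1531 in VND7XVE cells and 463 and 589.8 in SND1XVE cells without it, a difference of 1.08 ± 0.14 with estradiol and 1.46 ± 0.14 without it. AT3G09480 had 961 and 1057 in VND7XVE cells and 382 and 432 in SND1XVE cells with estradiol, and 1050.2 and 1102 in VND7XVE cells and 422 and 438 in SND1XVE cells without it. Its differences were 1.28 ± 0.12 with estradiol and 1.29 ± 0.12 without it, nearly equal in both settings. AT2G37470 had 1110.5 and 1028 in VND7XVE cells and 319 and 406 in SND1XVE cells with estradiol, and 1072 and 1225 in VND7XVE cells and 435 and 499.5 in SND1XVE cells without it. AT3G53650 had 708 and 708.5 in VND7XVE cells and 180.4 and 295 in SND1XVE cells with estradiol, and 621 and 707 in VND7XVE cells and 282.5 and 275 in SND1XVE cells without it. The difference for AT2G37470 was 1.53 ± 0.14 with estradiol and 1.27 ± 0.14 without it, and for AT3G53650 it was 1.55 ± 0.18 with estradiol and 1.2 ± 0.18 without it. All 4 encode the H2B core histone, and on the scale of signal + 16 they were 2.11 to 2.93 times as high in VND7XVE as in SND1XVE cells with estradiol and 2.30 to 2.76 times as high without it. H2B genes are close copies of each other, and oligonucleotides of 1 probe set may take up transcripts of another, so the 4 are not independent measurements.

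Other members are known from stress, starvation and metabolism. AT3G10020, a gene of unknown function that rises under low oxygen, had 2314 and 2097 in VND7XVE cells and 523.5 and 619.8 in SND1XVE cells with estradiol, and 1999 and 2107 in VND7XVE cells and 586.5 and 608 in SND1XVE cells without it. Its difference was 1.92 ± 0.12 with estradiol and 1.75 ± 0.12 without it. AT1G14200 encodes a RING-type protein of a class that attaches ubiquitin, and had 689.6 and 757 in VND7XVE cells and 231 and 182 in SND1XVE cells with estradiol, and 754 and 679 in VND7XVE cells and 191 and 289 in SND1XVE cells without it. Its difference was 1.74 ± 0.17 with estradiol and 1.54 ± 0.17 without it. AT4G27450, on the sugar starvation list, had 2187 and 2907 in VND7XVE cells and 1059 and 1067 in SND1XVE cells with estradiol, and 3734 and 3085 in VND7XVE cells and 1082 and 1328 in SND1XVE cells without it. Its estradiol effect in VND7XVE cells was -0.43, without a call, and the line differences were 1.23 ± 0.14 with estradiol and 1.49 ± 0.14 without it. AT3G62550, of the universal stress protein family, had 467 and 550.2 in VND7XVE cells and 228.5 and 184 in SND1XVE cells with estradiol, and 501 and 559 in VND7XVE cells and 165 and 209.5 in SND1XVE cells without it. Its difference was 1.24 ± 0.16 with estradiol and 1.43 ± 0.16 without it.

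Enzymes and a transporter were also among the members. MCCA is a subunit of methylcrotonyl-CoA carboxylase, a mitochondrial enzyme of leucine breakdown. It had 1103 and 1203 in VND7XVE cells and 704.5 and 557 in SND1XVE cells with estradiol, and 1117 and 1078 in VND7XVE cells and 425 and 516 in SND1XVE cells without it. Its difference was 0.86 ± 0.14 with estradiol and 1.2 ± 0.14 without it, and its estradiol effect in SND1XVE cells was 0.41, without a call. BGLU40, of the beta-glucosidase family, had 604.5 and 679 in VND7XVE cells and 239.5 and 221 in SND1XVE cells with estradiol, and 511 and 631 in VND7XVE cells and 217 and 254 in SND1XVE cells without it, a difference of 1.42 ± 0.15 with estradiol and 1.22 ± 0.15 without it. AT3G48420, of the HAD family of hydrolases, had 727 and 584 in VND7XVE cells and 274 and 277 in SND1XVE cells with estradiol, and 613 and 625 in VND7XVE cells and 254 and 233 in SND1XVE cells without it. Its difference was 1.2 ± 0.14 with estradiol and 1.29 ± 0.14 without it. AT1G72140, of the NPF family of nitrate and peptide transporters, had 198 and 228.5 in VND7XVE cells and 137 and 151 in SND1XVE cells with estradiol, and 254 and 268 in VND7XVE cells and 73.1 and 133.5 in SND1XVE cells without it. Among the members that list 1 gene, its arrays came nearest to overlapping. Its difference was 0.52 ± 0.22 with estradiol and 1.26 ± 0.22 without it, and with estradiol it was 1 of the 2 members not called. Without SND1XVE control replicate 2 the difference without estradiol was 1.64, and without replicate 1 it was 0.89.

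The remaining members with 1 listed gene have no well-known function. AT4G33660, a small protein with a cysteine-rich transmembrane module, had 191 and 184 in VND7XVE cells and 78.5 and 67.9 in SND1XVE cells with estradiol, and 210.4 and 219 in VND7XVE cells and 94.8 and 34.2 in SND1XVE cells without it. Its SND1XVE arrays without estradiol were the most unequal pair among the members. The line difference for AT4G33660 was 1.19 ± 0.29 with estradiol and 1.63 ± 0.29 without it. Without SND1XVE control replicate 1 the value without estradiol was 2.20, and without replicate 2 it was 1.06. AT1G17090 had 639 and 688 in VND7XVE cells and 203 and 151 in SND1XVE cells with estradiol, and 542 and 484 in VND7XVE cells and 234 and 151.5 in SND1XVE cells without it. Its difference was 1.83 ± 0.19 with estradiol and 1.37 ± 0.19 without it, larger with estradiol. AT5G35320 had 1405 and 1638 in VND7XVE cells and 665 and 764 in SND1XVE cells with estradiol, and 1866 and 1782 in VND7XVE cells and 626 and 799 in SND1XVE cells without it. Its difference was 1.07 ± 0.13 with estradiol and 1.35 ± 0.13 without it, smaller with estradiol.

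Most of the members cannot be named here. The 38 probe sets with no listed gene had a median difference without estradiol of 1.41, against 1.45 for the 24 with 1 gene and 1.45 for the 7 with several. They include the largest difference of all. The unlisted probe set with the largest difference had 4874.5 and 4677 in VND7XVE cells and 839 and 816 in SND1XVE cells with estradiol, and 5684 and 4818 in VND7XVE cells and 891 and 758 in SND1XVE cells without it. The next had 3144 and 2833 in VND7XVE cells and 441 and 451 in SND1XVE cells with estradiol, and 2275 and 2300.0 in VND7XVE cells and 311 and 474 in SND1XVE cells without it. Both were above every named member in the line difference without estradiol, at 2.65 and 2.52. Of the 7 probe sets with several genes, 3 list 2 genes, 2 list 5 and 2 list 8, so a signal there belongs to no single gene.

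Just inside the minimum of 1.2 stood MCCA at 1.2, AT3G53650 at 1.2 and BGLU40 at 1.22. Just outside it stood ARLA1C, of the ARF-like GTPases, at 1.2 (1.19514 before rounding), AT2G28130 at 1.18 and AT5G25450 at 1.18. The values on the 2 sides of the minimum differ by less than the SE of 0.14 for MCCA.

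The rule's estradiol limits set 27 probe sets aside, since 96 met its other conditions. Of the 27, 22 had signals more than 0.5 higher with estradiol in SND1XVE cells and 14 in VND7XVE cells, while 4 were more than 0.5 lower with estradiol in VND7XVE cells and 1 in SND1XVE cells. A probe set could count in both lines.

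Within the limits, the members' estradiol effects, estradiol minus control, spread around 0. In VND7XVE cells they ran from -0.48 to 0.46 with a median of -0.06, and 26 were above 0 and 43 below. In SND1XVE cells they ran from -0.42 to 0.48 with a median of 0.03, with 40 above 0 and 29 below. The medians over all tested probe sets were -0.03 in VND7XVE and 0.02 in SND1XVE cells. In VND7XVE cells 2 members were called, both lower with estradiol, against 14.5% of all tested probe sets (8.15% higher and 6.37% lower). In SND1XVE cells 5 members were called, 4 higher and 1 lower, against 16.4% of all tested (9.37% higher and 7.06% lower). None of the 7 calls was on a probe set with 1 listed gene. The line difference was larger with estradiol for 23 members and smaller for 46, with a median change of -0.08. No member was called for this change, against 3.06% of all tested probe sets (1.97% with a positive and 1.09% with a negative change). At an unadjusted limma p below 0.05 there were 8 of 69, which is 11.6%, against 13.4% of all tested probe sets. The limits bound these values, so nothing is read from these shares.

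**Figure D3:**
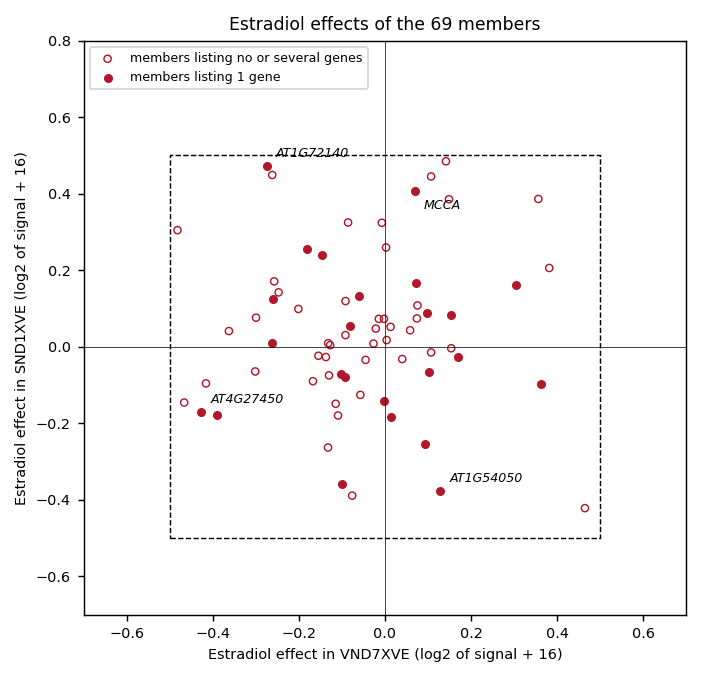
Estradiol effect, estradiol minus control in log2(signal + 16), in VND7XVE cells (horizontal) and in SND1XVE cells (vertical) for each of the 69 members. The dashed box is the limit of 0.5 that the rule set; the members fill much of it, from -0.48 to 0.46 across and from -0.42 to 0.48 upward.

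The plot of estradiol effects shows members near several edges of the box. AT1G72140 and MCCA stood high on the SND1XVE axis at 0.47 and 0.41. AT4G27450 and AT5G37670 stood to the left on the VND7XVE axis at -0.43 and -0.39. AT1G54050 stood low on the SND1XVE axis at -0.38. Hop3, in contrast, was higher with estradiol in both lines, by 0.30 and 0.16, without a call.

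The rule turned round, for probe sets higher in SND1XVE cells, found 76 probe sets, of which 45 list 1 gene. None of those 45 is on the heat shock list or in the chaperone and histone families, but the families were drawn up from the members, so nothing is read from this. The members' genes had a median length of 1588.5 bases in the RefSeq annotation, from 742 to 4641. The median was 1779 for the genes of the mirrored set and 2319 over all 8077 tested probe sets that list 1 gene with a length. The 24 members with 1 listed gene, the only ones that could be placed, lay on all 5 chromosomes, 7 on chromosome 1, 3 on 2, 7 on 3, 5 on 4 and 2 on 5. Chromosome 3 held 29.2% of these 24 and 19.99% of the tested genes, and chromosome 5 held 8.33% and 23.7%. No pair of the 24 lay within 10 genes of each other, and the nearest pair, Fes1A and AT3G09480 on chromosome 3, was 13 genes apart. The members' mean signal stood at a median percentile of 80.8 among the array's probe sets, a measure that the rule's minimum signal bears on.

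The members' relatives were followed through 13 families, which were drawn up once the members were known. For H2B, 9 of 10 genes were tested, of which 4 were members chosen on these values. The 5 others were all called higher in VND7XVE than in SND1XVE cells both with and without estradiol, against 14.1% and 13.7% of all tested probe sets, and their medians were 0.95 with estradiol and 0.85 without. They had line differences without estradiol of 1.00 ± 0.11 for HTB4 (adjusted p = 4e-06), 0.86 ± 0.20 for AT2G28720 (adjusted p = 0.00395) and 0.85 ± 0.21 for HTB2 (adjusted p = 0.00671) in limma's fit. The differences were 0.78 ± 0.12 for HTB1 (adjusted p = 0.000127) and 0.77 ± 0.19 for AT5G02570 (adjusted p = 0.0073), again from limma. Their probe sets too may take up transcripts of the members or of each other. These 5 are therefore not independent measurements, and the family was followed because it held members. Histone H1, which binds the linker DNA between nucleosomes, had 3 tested genes. Without estradiol AT1G06760 was higher by 0.62 ± 0.10 (limma adjusted p = 0.000267) and AT2G30620 by 0.33 ± 0.11 (limma adjusted p = 0.0298), and HIS1-3, at -0.79, was not called, while with estradiol AT1G06760 alone was called. No H2A gene had a probe set of its own, and the 2 replication genes with one did not pass the filter.

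Among 10 tested small heat shock protein genes, 3 members and 2 of the genes that the rule leaves out were called higher without estradiol, and so were 2 of the other 5. The share over all tested probe sets was 13.7%, and with only 5 genes nothing is read from the count. AT5G51440 had signals of 2026 and 1869.5 in VND7XVE cells and 633 and 712 in SND1XVE cells with estradiol, and 2003 and 1890.3 in VND7XVE cells and 925 and 837.5 in SND1XVE cells without it, a difference of 1.51 ± 0.11 with estradiol and 1.13 ± 0.11 without it, with limma adjusted p of 4.56e-08 and 1.83e-06. AT2G19310 had 601.5 and 542 in VND7XVE cells and 291.5 and 322 in SND1XVE cells with estradiol, and 555 and 534 in VND7XVE cells and 228 and 243 in SND1XVE cells without it, a difference of 0.86 ± 0.14 with estradiol and 1.16 ± 0.14 without it, with limma adjusted p of 0.000142 and 9.93e-06. Neither reached the minimum of 1.2. The 3 others, AT5G54660, AT4G21870 and ATHSP22.0, had differences of 0.92, 0.70 and 0.82 without estradiol and were not called.

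In the HSP70 machine, 4 HSP70 and HSP110 genes, 8 DnaJ genes, 3 Hop genes and 3 Fes1 genes were tested. With estradiol 8 of them were called higher and 0 lower, and without it 7 higher and 1 lower. The higher ones include 4 members, chosen on these values, so nothing is read from the counts. Over all tested probe sets 14.1% were called higher and 16.5% lower with estradiol, and 13.7% higher and 13.8% lower without it. Of 4 HSP70 and HSP110 genes, AT3G09440 was higher by 0.70 ± 0.14 (limma adjusted p = 0.00163) and Hsp70-2 by 0.66 ± 0.15 (limma adjusted p = 0.00414), both without estradiol. The other 2, AT4G16660 and AT1G11660, had 0.20 and 0.22 without estradiol and were not called. Of 8 tested DnaJ genes in the family list, the 2 called higher without estradiol were the members AT2G20560 and AT4G28480. The list does not hold the DnaJ member AT1G71000, which was higher by 2.28 ± 0.16 without estradiol. AT3G08910 was called lower without estradiol, at -0.55 ± 0.19 (limma adjusted p = 0.0395), and with estradiol it had -0.49 ± 0.19 (limma adjusted p = 0.0623). With estradiol AT1G10350, at 0.96 ± 0.25 (limma adjusted p = 0.00742), was called higher besides the 2 members, and none was lower. Without estradiol Hop2 was higher by 0.60 ± 0.11 (limma adjusted p = 0.00062), against 2.11 for Hop3, and Hop1 had 0.28 and was not called. Without estradiol Fes1B and Fes1C had -0.49 and -0.10 and were not called, against 1.22 for Fes1A. Of 2 chaperonin and prefoldin genes 1 was called lower in both settings. No HSP90 or HSP100 gene had a probe set that lists it alone.

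MCCB, the partner subunit of MCCA in the same enzyme, had signals of 302 and 374 in VND7XVE cells and 225.5 and 195 in SND1XVE cells with estradiol, and 333.5 and 335 in VND7XVE cells and 234 and 258 in SND1XVE cells without it. Its difference was 0.64 ± 0.16 with estradiol and 0.42 ± 0.16 without it, called with estradiol (limma adjusted p = 0.0057) and not without it (limma adjusted p = 0.0603). IVD, an earlier enzyme of leucine breakdown, was higher by 0.50 ± 0.11 without estradiol (limma adjusted p = 0.00258). Of 5 tested genes of branched-chain amino acid breakdown, MCCA and IVD were called higher and AT4G31810 lower in both settings, and MCCB was higher with estradiol alone. For comparison, 14.1% of all tested probe sets were called higher and 16.5% lower with estradiol, and 13.7% and 13.8% without it. In the universal stress protein family, 3 of 11 tested genes were called higher, 1 lower and 7 not with estradiol, and 2 higher, 1 lower and 8 not without it. AT3G03270 of this family had 487 and 502 in VND7XVE cells and 177 and 195 in SND1XVE cells with estradiol, and 494.5 and 488 in VND7XVE cells and 100.2 and 99.1 in SND1XVE cells without it. Its line difference without estradiol was larger than that of the member AT3G62550, at 2.13 ± 0.15 (limma adjusted p = 3.45e-08), but its signals in SND1XVE cells were 0.80 higher with estradiol, outside the rule's limit.

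**Figure D4:**
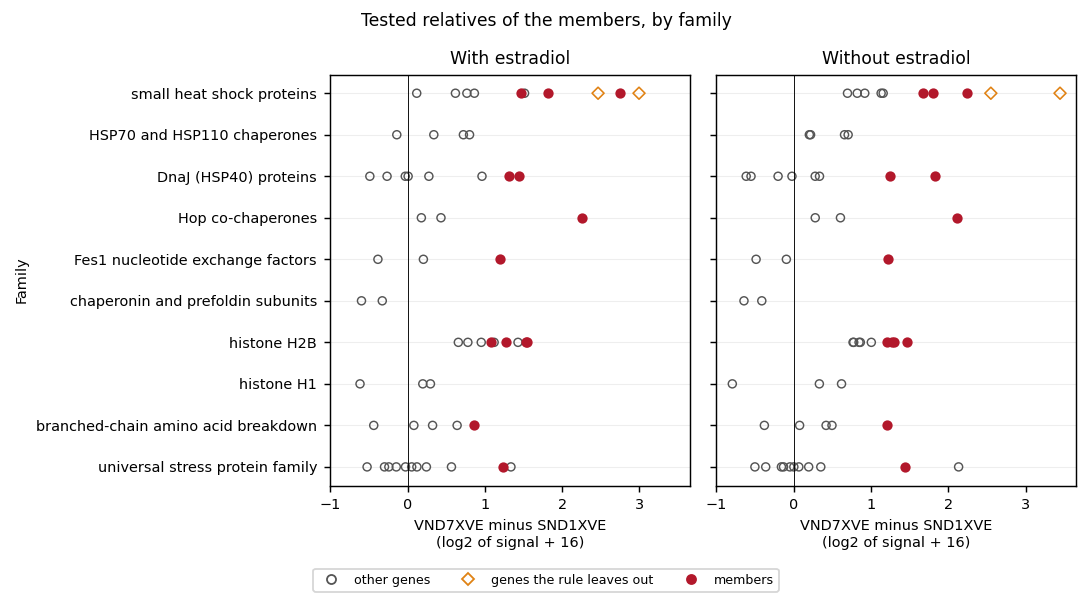
Line differences, VND7XVE minus SND1XVE in log2(signal + 16), of the tested genes of the members' families, with estradiol (left) and without (right). Each point is 1 gene; filled red points are members, diamonds are genes the rule leaves out and open circles are the other genes, and the 9 H2B genes, 4 of them members, lie to the right of 0 in both panels.

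Lists of 21 pathways and gene groups set the members beside other processes. Few of their genes have a probe set of their own in the annotation used here. Of all tested probe sets, 14.1% were called higher and 16.5% lower with estradiol, and 13.7% and 13.8% without it. The heat shock list had 8 tested genes, of which 3 were members (Hop3, AT2G29500 and AT5G37670) and 3 more were the loci that the rule leaves out by name. Of these 8, 7 were called higher in both settings, with medians of 2.03 with estradiol and 1.96 without. Of the 2 genes outside both sets, AT3G09440 was called and ATHSP22.0, at 0.82 ± 0.52, was not. Since the members and the omitted loci were chosen on these values, the list's count is no independent evidence. The sugar starvation list had 5 tested genes, AT4G27450 among them. With estradiol 3 were called higher and 1 lower, with a median of 0.44. The lower one was SAG29, at -1.78 (limma adjusted p = 0.00128). Without estradiol SAG29 had 0.16 and was not called, and its estradiol effect in SND1XVE cells was 2.13. Of the 5 genes, 4 were called higher and none lower without estradiol, with a median of 0.31.

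None of the other 19 lists held a member. Of all tested probe sets, 13.7% were called higher and 13.8% lower without estradiol, and 14.1% and 16.5% with it. With so few tested genes in each list, nothing is read from the counts. Without estradiol, both tested genes of the salicylic acid list and both of the jasmonate list were called lower in VND7XVE cells, with medians of -1.63 and -2.18. The 2 jasmonate genes, PDF1.2 and PDF1.2b, had low signals in VND7XVE cells, 9.3 to 30.8 and 4.1 to 48.5. They are close relatives whose probe sets may take up each other's transcripts, so they are not independent measurements. Without estradiol the xenobiotic list had 3 of 4 called lower, the low oxygen list 1 of 4 and the auxin list 1 of 2. Called higher were 2 of 4 nuclear photosynthesis genes, 1 of 4 genes of the abscisic acid list, 1 of 2 flavonoid genes, 1 of 2 touch genes and the 1 tested gene of nitrogen and sulfur assimilation. Of 5 reference genes 1 was called higher and 2 lower, with a median of 0.03. No gene was called among 3 for the secondary wall, 3 for wall loosening, 2 for iron, 2 for the unfolded protein response, 1 for the clock and 1 for the cell cycle. The phosphate and glucosinolate lists had no tested gene. With estradiol the counts differed for the xenobiotic list (1 higher and 2 lower), the photosynthesis list (3 higher), the clock list (1 lower), the touch list (0 called) and the reference genes (1 higher and 1 lower). GSTU22, the xenobiotic gene called higher there, had -0.94 without estradiol. Its estradiol effects were 4.42 in VND7XVE and 2.56 in SND1XVE cells. With estradiol 1 of the 3 secondary wall genes, a group that both factors are known to control, was called lower in VND7XVE cells and none higher.

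**Figure D5:**
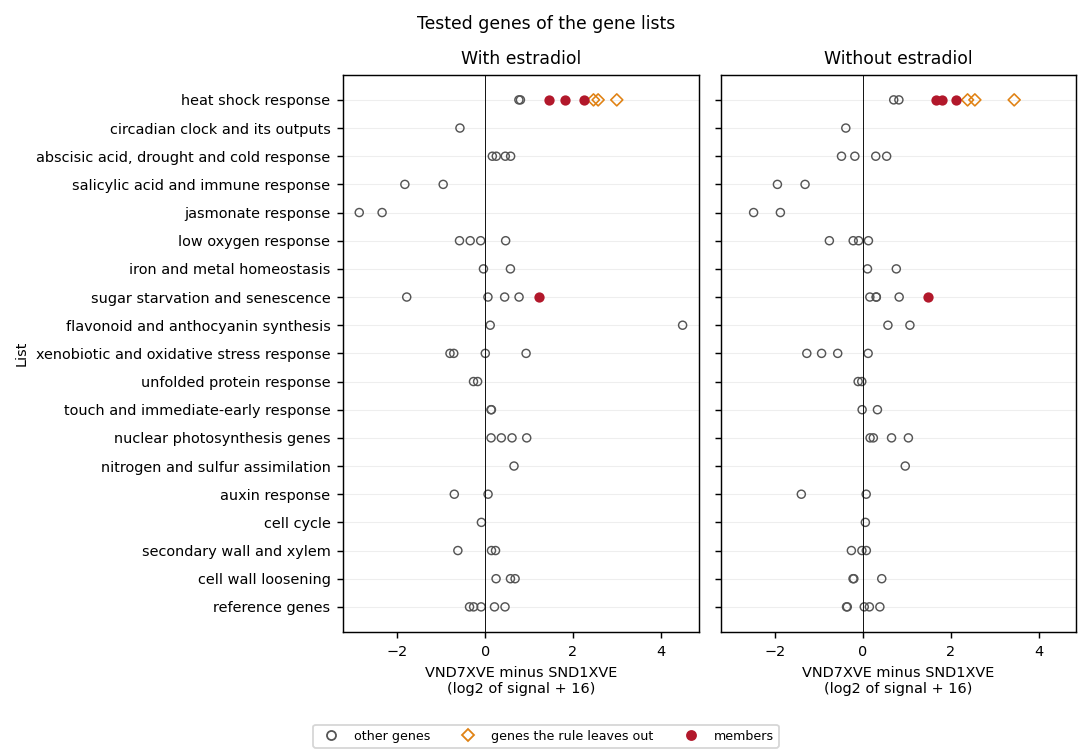
Line differences, VND7XVE minus SND1XVE in log2(signal + 16), of the tested genes of the 19 lists that have any, with estradiol (left) and without (right). Each point is 1 gene. Filled red points are members and diamonds are genes the rule leaves out. The heat shock list has 7 of 8 genes called higher. Both jasmonate genes, which had low signals in VND7XVE cells, lie at -1.87 or below in both panels.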

How the data were processed

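The 8 arrays, 2 in each of 4 groups, were analysed from the signal intensity per probe set as deposited by the authors. These intensities came from GCOS per the submitters' processing notes, while its version, settings and target level are not named in the notes. Every column of the deposited table was used, and a trimmed mean that is alike on all arrays shows that the authors had scaled them. The number of arrays, not a count of reads, limits the precision.

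Signals were analysed as log2(signal + 16), the pseudocount being added here. Probe sets above the 40th percentile on at least 2 arrays were tested, and the fit used limma 3.58.1 in R 4.3.3 with 4 group means, moderated variances with a trend and Benjamini-Hochberg adjustment at 0.05. The fit was also run on simulated data with independent noise drawn at the fitted spreads. Such a run cannot speak to shared cultures, batches or technical replicates. Tables were made with Python 3.11.15 and pandas 2.3.3, and plots with matplotlib 3.10.9. Genes were named only from the platform annotation. Of 22746 probe sets outside the 64 array controls, 13513 list 1 gene, 503 several and 8730 none. Of the 13513, 13484 probe sets matched RefSeq TAIR10.1, which gave gene lengths and neighbour order. A plastid-encoded gene could be left out only where its probe set is annotated, and the rule removed 8 such probe sets and 3 named loci of 80 that met its limits.

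The members and lists were chosen with earlier results of these data known, and the 13 families after the members had been seen. Values were given for every member that lists 1 gene, for the 3 on either side of the minimum that do so, and for genes of the families and lists. The 2 unlisted probe sets with the largest differences were chosen after their values were seen. Alternatives covered the pseudocount, normalization, filter, variance model, replicate number as a block, each array left out and the rule's own limits. Promoter sequences were not analysed here.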

Additional observations from a re-analysis of the deposited data

How the results depend on the processing

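With 2 arrays a group, single arrays moved the counts of called probe sets. Leaving out each array in turn gave 2998 to 4796 calls between the lines with estradiol, lowest without VND7XVE estradiol replicate 1, and 2571 to 4100 without estradiol, lowest without VND7XVE control replicate 2 and 2601 without replicate 1. It gave 1231 to 2256 calls for estradiol in VND7XVE cells, lowest without VND7XVE control replicate 1, and 1308 when VND7XVE estradiol replicate 1 was left out. In SND1XVE cells it gave 1611 to 2289, lowest without SND1XVE estradiol replicate 1. For the difference between the estradiol effects it gave 232 to 446, with 232 and 263 without VND7XVE estradiol replicates 1 and 2. A lone remaining array was assumed to vary like the other groups. Across these fits 66 to 69 members were called with estradiol, and the rule itself found 63 to 81 probe sets, of which 53 to 67 were among the 69. The fewest shared were 53 without SND1XVE control replicate 1, and 55 both without SND1XVE control replicate 2 and without VND7XVE control replicate 2. Without a variance trend, limma called 1326 probe sets for estradiol in VND7XVE cells, 1584 in SND1XVE cells and 226 for the difference between them, and with no filter on low signal it called 291 for that difference. The rule found 128 probe sets with a minimum difference of 1.0 and 28 with 1.5. Median centring moved the median estradiol effect of all genes to -0.15 in VND7XVE and -0.08 in SND1XVE cells. With it 1021 were called higher and 1938 lower in VND7XVE, against 1204 and 940 as reported, and 1089 higher and 1665 lower in SND1XVE, against 1384 and 1043. Deviations of arrays with the same replicate number correlated at -0.031 to 0.024 between groups, so no common pattern showed across all probe sets. This cannot settle whether such arrays shared a culture or day, which the labels do not say. With the replicate number as a block, 4520 probe sets were called between the lines with estradiol, 4075 without, 2169 and 2457 for estradiol in VND7XVE and SND1XVE cells, 441 for the difference between these effects, and 67 members with estradiol. Line differences of the named members were recomputed with other pseudocounts and normalizations and with each array left out. Of these 576, 60 moved by more than 1 SD of the replicates and 0 changed sign. Where the array left out was not part of a difference, that difference could not move, so the 60 are not a measure of stability. Without estradiol, 10 of 24 moved with a pseudocount of 64, and 9 of 24 when either SND1XVE control array was left out. The causes were not tested.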
